A study of Mus musculus with 36 samples.

Results

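Markers of the cells that line the liver's blood and bile vessels were followed in mouse livers after phenobarbital (PB). The gene list holds 38 markers, taken by name, of which 36 are in the RNA table of 13862 genes: all 30 endothelial markers and 6 of 8 biliary markers. The biliary markers Cldn7 and Cftr were not analysed here. All 36 passed the filter on low levels that left 13838 genes for testing. The study exposed male mice of 2 strains to PB in drinking water and profiled the RNA and the DNase I hypersensitive sites (DHSs, stretches of open chromatin) of their livers. PB is a promoter of liver tumors in rodents, and B6C3F1 mice are more prone to such tumors than C57BL/6 mice. The C57BL/6J mice (C57BL/6 in the sample labels) came from Taconic and were 9 to 11 weeks old at the start, while the B6C3F1 mice came from Charles River and were 4 to 5 weeks old. The PB came from Hänseler AG for C57BL/6J and from Sigma-Aldrich for B6C3F1. Strain, mouse supplier, start age, PB source and study cannot be told apart. In each strain, 4 vehicle mice drank water and 5 PB mice drank water with 0.05% (wt/vol) PB, in both cases for 91 days. Each of the 18 mice gave an RNA library and a DNase-seq library.

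Liver sinusoidal endothelial cells form a fenestrated lining without a closed basement membrane, clear waste from blood through scavenger receptors, and send Wnt and BMP signals to the hepatocytes beside them. Wnt2, Wnt9b and Rspo3 from endothelium near the central vein keep hepatocytes there in a pericentral state, and Bmp2 and Bmp6 drive hepatocyte production of the iron hormone hepcidin. Cholangiocytes, the cells of the bile ducts, carry Krt7, Krt19 and Sox9, and genes such as Sox9, Spp1 and Prom1 also mark ductular and progenitor-like cells in injured liver. PB acts in hepatocytes through the nuclear receptor CAR, whose targets include Cyp2b10.

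RNA depth was 24.4 to 27.6 M reads in genes per mouse in C57BL/6J vehicle, 23.8 to 27.8 M in C57BL/6J PB, 27.2 to 30.3 M in B6C3F1 vehicle and 27.0 to 29.6 M in B6C3F1 PB. DNase-seq depth was 21.4 to 58.1 M, 19.4 to 44.6 M, 7.01 to 24.4 M and 14.5 to 25.7 M reads in DHSs in the same order, so that the B6C3F1 vehicle group held the shallowest library. RNA levels are given in CPM and, where genes are compared with one another, in CPM per kb of RefSeq exon. The libraries had the profile of whole liver. The median level was 2158 CPM per kb over 17 hepatocyte genes, 7.80 over the 30 endothelial markers, 0.791 over the 6 biliary markers and 4.52 over 13347 genes with a RefSeq length. None of the 36 markers was at 0 in any mouse. In such bulk tissue, fewer cells of a type and less RNA per cell cannot be told apart. PB reached its target in both strains: 14 of 15 CAR target genes rose in each, Cyp2b10 by a log2 fold change of 7.07 (SE 0.28, FDR 6.7e-10) in C57BL/6J and 7.13 (SE 0.28, FDR 4.7e-10) in B6C3F1.

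Levels of the markers differed widely. As the mean of the 4 group means, the lectin Clec4g had 35.8 CPM per kb and the water channel Aqp1 had 35.4. The Fc receptor Fcgr2b (24.4) and the endocytic recycling protein Ehd3 (23.2) followed, then the phosphatase Ptprb (22.2), the mannose receptor Mrc1 (20.4) and the scavenger receptor Stab2 (20.2). Its relative Stab1 had 11.2 CPM per kb and the hyaluronan receptor Lyve1 had 4.17. Receptors of vessel growth spread from Kdr at 12.0 CPM per kb through Flt4 at 5.92, Tek at 5.76 and Tie1 at 4.19 to Flt1 at 1.85. Adhesion and surface proteins held Eng at 13.3, Cdh5 at 8.26, Pecam1 at 7.34, Gpr182 at 7.26 and Emcn at 2.102 CPM per kb, with Cd34 at 0.554. Secreted and intracellular proteins held Egfl7 at 16.1, Dnase1l3 at 13.2, Nostrin at 12.5, Oit3 at 12.0 and Vwf at 1.37 CPM per kb. Among the signals sent to hepatocytes were Bmp2 at 4.89, Rspo3 at 3.01, Wnt2 at 1.83, Bmp6 at 1.57 and Wnt9b at 0.262 CPM per kb. Biliary levels were low apart from the secreted phosphoprotein Spp1 at 19.5 CPM per kb, with Prom1 at 1.198, Sox9 at 0.951, Krt19 at 0.631, Krt7 at 0.314 and Sox4 at 0.267.

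Mice of a group differed little in most of the abundant markers and more in several of the scarce ones. The SD within groups, on the log2 scale, was 0.05 for Ptprb, 0.08 for Ehd3 and 0.08 for Clec4g. It was 0.42 for Wnt9b, 0.54 for Prom1 and 0.58 for Krt19. Lyve1 had an SD of 0.46, though its level was near that of Tie1, which had 0.12. Lyve1 ran from 6.24 to 15.7 CPM over the 18 mice, and Krt19 from 0.339 to 2.37 CPM.

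Each mouse was given an endothelial and a biliary score, the mean log2(CPM + 0.1) over the markers of the list. The endothelial score was 4.53, 4.58, 4.68 and 4.53 in the C57BL/6J vehicle mice and 4.66, 4.65, 4.70, 4.66 and 4.55 in the C57BL/6J PB mice. It was 4.50, 4.43, 4.47 and 4.43 in the B6C3F1 vehicle mice and 4.50, 4.58, 4.35, 4.51 and 4.57 in the B6C3F1 PB mice. PB and vehicle mice overlapped in both strains, and so did the PB groups of the strains. In the vehicle groups, every B6C3F1 mouse was below every C57BL/6J mouse. Group means were 4.58 ± 0.07 and 4.64 ± 0.05 in C57BL/6J and 4.46 ± 0.03 and 4.50 ± 0.09 in B6C3F1 (SD, n = 4 with vehicle and n = 5 with PB). The PB minus vehicle difference was 0.07 in C57BL/6J and 0.04 in B6C3F1, and the B6C3F1 minus C57BL/6J difference was -0.12 with vehicle and -0.14 with PB. Leaving out 1 mouse moved the PB difference in B6C3F1 to between 0.02 (without PB mouse 2) and 0.08 (without PB mouse 3). The biliary score was 1.23, 1.21, 1.77 and 1.15 with vehicle and 1.29, 1.70, 1.85, 1.49 and 1.49 with PB in C57BL/6J. In B6C3F1 it was 0.94, 1.09, 1.18 and 1.61 with vehicle and 1.48, 1.27, 1.63, 1.75 and 1.34 with PB. The biliary groups overlapped throughout, and C57BL/6J vehicle mouse 3 lay well above the rest of its group. Biliary means were 1.34 ± 0.29, 1.56 ± 0.22, 1.204 ± 0.29 and 1.49 ± 0.20 in the same order of groups. Among the 6 genes of this score, Prom1 had the largest log2 fold change with PB, 1.24 in C57BL/6J and 2.16 in B6C3F1. The median over the 6 genes was 0.06 and 0.01, and a score without Prom1 was not computed.

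**Figure D1:**
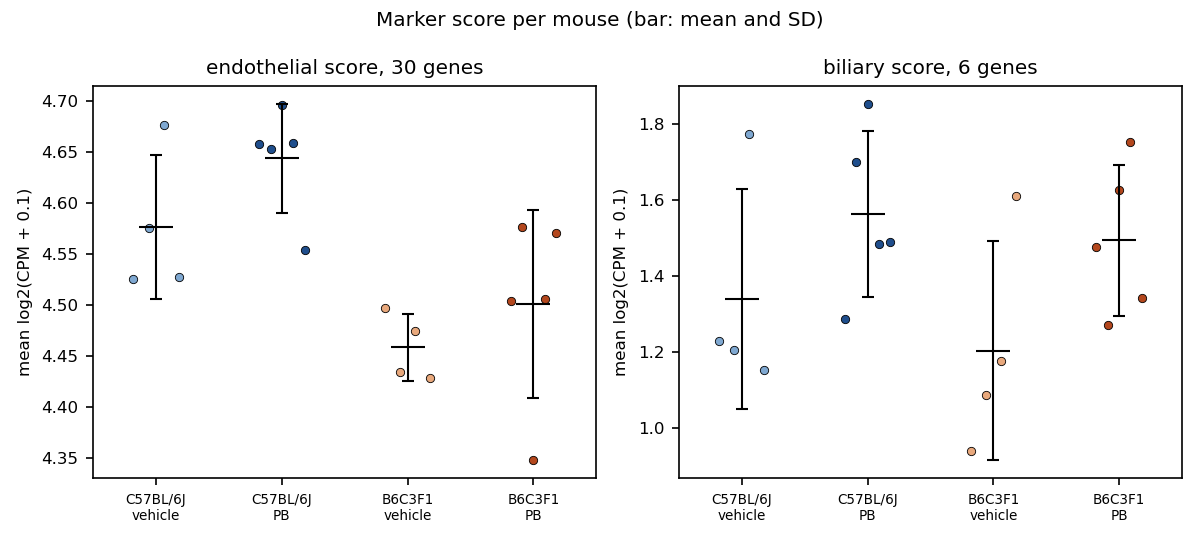
Endothelial (left) and biliary (right) marker score of each of the 18 mice, in mean log2(CPM + 0.1), by strain and treatment; points are mice and bars the group mean and SD. The axes do not start at 0. Endothelial scores of the B6C3F1 vehicle mice, 4.43 to 4.50, lie below those of the C57BL/6J vehicle mice, 4.53 to 4.68.

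In C57BL/6J, the tumor-resistant strain, 91 days of PB left the endothelial markers close to their vehicle levels. A gene was called when its absolute log2 fold change was at least 0.58 and its limma false discovery rate (FDR), adjusted over all genes, at most 0.01. No endothelial marker of 30 and no biliary marker of 6 was called by limma or by edgeR, against 0.874% of all genes by limma and 0.939% by edgeR. At an unadjusted p under 0.05 there were 7 endothelial markers and 1 biliary marker, where 12.4% of all genes passed. The log2 fold change was above zero for 24 of 30 endothelial markers, with a median of 0.12, while 47.8% of all genes were above zero with a median of -0.01. It ranged from -0.36 to 0.22. Hepatocyte genes were below zero for 17 of 17, with a median of -0.10, and a shift in their share of the RNA was not tested. PB and vehicle mice did not overlap in Oit3 and Flt1, which were higher with PB, in Rspo3, which was lower, and in the biliary marker Prom1, which was higher. Such separation held for 7.64% of all genes.

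Oit3, a zona pellucida domain protein of sinusoidal endothelium, and the VEGF receptor Flt1 were the endothelial genes with PB above vehicle in every C57BL/6J mouse. In C57BL/6J, Oit3 stood at 33.1, 35.7, 33.8 and 29.4 CPM in the 4 vehicle mice and at 36.2, 39.0, 40.7, 39.6 and 36.7 CPM in the 5 PB mice. In B6C3F1, Oit3 stood at 30.2, 25.6, 30.4 and 33.0 CPM with vehicle and at 30.1, 30.2, 27.0, 31.5 and 25.2 CPM with PB. All PB mice lay above all vehicle mice in C57BL/6J, and the B6C3F1 groups overlapped. For Oit3 the log2 fold change was 0.22 (SE 0.08, FDR 0.162) in C57BL/6J and -0.05 (SE 0.08, FDR 0.763) in B6C3F1. In C57BL/6J, Flt1 stood at 20.3, 19.8, 21.3 and 20.498 CPM in the 4 vehicle mice and at 22.4, 22.8, 24.3, 22.7 and 21.8 CPM in the 5 PB mice. In B6C3F1, Flt1 stood at 19.9, 16.3, 17.7 and 19.1 CPM with vehicle and at 19.4, 21.8, 19.1, 20.3 and 18.5 CPM with PB. The C57BL/6J groups were apart by less than 1 CPM at their nearest, and the B6C3F1 groups overlapped. Its log2 fold change was 0.16 (SE 0.06, FDR 0.294) in C57BL/6J and 0.12 (SE 0.06, FDR 0.261) in B6C3F1. Ptprb, the endothelial receptor phosphatase, was the most abundant marker in CPM. In C57BL/6J, Ptprb stood at 275, 261, 272 and 262 CPM in the 4 vehicle mice and at 289, 298, 291, 302 and 269 CPM in the 5 PB mice. In B6C3F1, Ptprb stood at 252, 244, 260.2 and 237 CPM with vehicle and at 252, 256, 239, 255.1 and 261 CPM with PB. Values with PB were mostly above those with vehicle in C57BL/6J, where only PB mouse 5 lay within the vehicle range, and the B6C3F1 groups were interleaved. Its log2 fold change was 0.12 (SE 0.04, FDR 0.228) in C57BL/6J and 0.02 (SE 0.04, FDR 0.791) in B6C3F1.

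Rspo3, which strengthens Wnt signals at the central vein, was lower with PB in both strains but was not called in either. In C57BL/6J, Rspo3 stood at 9.38, 9.52, 8.69 and 8.14 CPM in the 4 vehicle mice and at 7.29, 6.79, 7.16, 6.28 and 7.19 CPM in the 5 PB mice. In B6C3F1, Rspo3 stood at 6.91, 7.25, 6.66 and 7.81 CPM with vehicle and at 4.94, 5.43, 5.68, 5.596 and 7.24 CPM with PB. Every C57BL/6J PB mouse lay below every C57BL/6J vehicle mouse. In B6C3F1, 4 of 5 PB mice were below all vehicle mice and PB mouse 5 was among them. Its PB response was a log2 fold change of -0.36 (SE 0.10, FDR 0.0612) in C57BL/6J and -0.31 (SE 0.10, FDR 0.0528) in B6C3F1, with a strain difference in response of 0.05 (SE 0.14, FDR 0.964). Wnt2 had log2 fold changes of -0.12 and -0.04 in C57BL/6J and B6C3F1, and Wnt9b had -0.31 and -0.46. The BMP ligands stood at 0.14 and 0.10 for Bmp2 and at -0.09 and -0.10 for Bmp6.

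**Figure D2:**
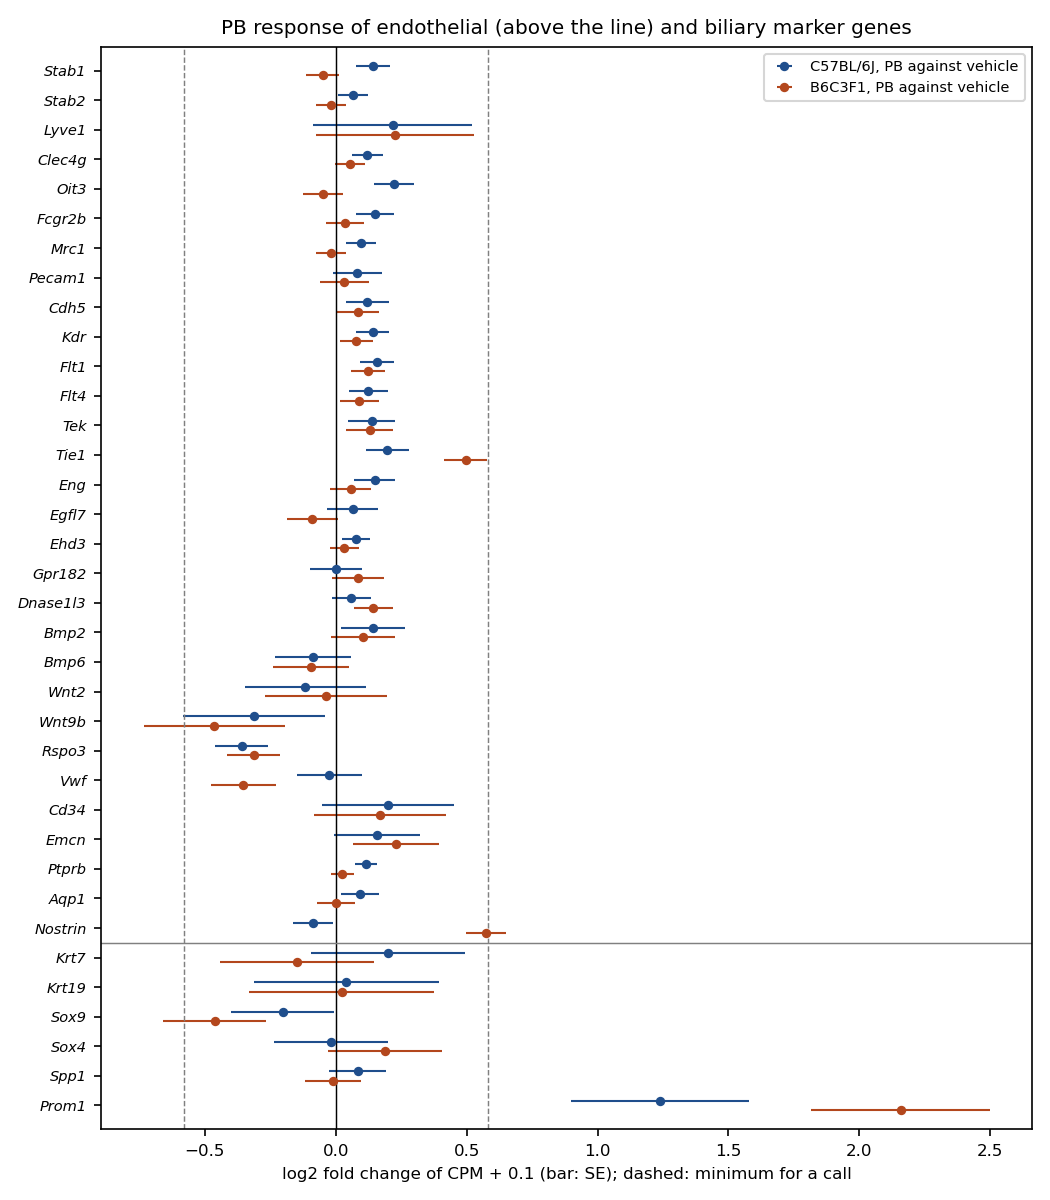
Log2 fold change of CPM + 0.1 (PB against vehicle) for each marker gene in C57BL/6J (blue) and B6C3F1 (red), with the 30 endothelial markers above the line and the 6 biliary markers below it. Points are limma estimates, bars their SE, and dashed lines the minimum of 0.58 for a call; Prom1 lies farthest to the right in both strains, and among endothelial genes Nostrin and Tie1 do so in B6C3F1.

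In B6C3F1, the tumor-prone strain, Prom1 rose with PB, and the endothelial genes Nostrin and Tie1 were higher in every PB mouse than in any vehicle mouse without reaching the minimum fold change for a call. Limma called 0 of 30 endothelial markers and 1 of 6 biliary markers, against 2.002% of all genes; edgeR gave the same counts, against 2.103%. At an unadjusted p under 0.05 there were 4 endothelial and 2 biliary markers, where 23.4% of all genes passed. The endothelial log2 fold changes were above zero for 19 of 30 genes with a median of 0.05, and ranged from -0.46 to 0.57. Over all genes, 47.8% were above zero and the median was -0.01. Groups did not overlap for Tie1, Nostrin and Prom1, all higher with PB, beside 9.05% of all genes.

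Nostrin binds endothelial nitric oxide synthase and takes part in its traffic from the cell surface. In C57BL/6J, Nostrin stood at 23.1, 23.5, 23.8 and 23.4 CPM in the 4 vehicle mice and at 23.1, 23.6, 19.0, 22.3 and 22.5 CPM in the 5 PB mice. In B6C3F1, Nostrin stood at 21.0, 17.97, 16.4 and 16.8 CPM with vehicle and at 29.1, 25.4, 27.4, 24.1 and 28.2 CPM with PB. The C57BL/6J vehicle mice were within 1 CPM of each other and the C57BL/6J PB mice overlapped them. In B6C3F1 the groups were apart, with every PB mouse above all C57BL/6J mice and every vehicle mouse below all of them but PB mouse 3. Means were 23.4 ± 0.280 and 22.1 ± 1.82 CPM in C57BL/6J and 18.1 ± 2.102 and 26.8 ± 2.03 CPM in B6C3F1 (SD). With PB its log2 fold change was 0.57 (SE 0.08, FDR 2.7e-05) in B6C3F1, just short of the minimum of 0.58, and -0.09 (SE 0.08, FDR 0.751) in C57BL/6J. Leaving out B6C3F1 vehicle mouse 1 (0.65, FDR 6.1e-06), PB mouse 2 (0.59, FDR 4.8e-05) or PB mouse 4 (0.61, FDR 2.7e-05) brought it past that minimum. Tie1 is the orphan partner of the angiopoietin receptor Tek. In C57BL/6J, Tie1 stood at 12.3, 14.0, 16.4 and 13.6 CPM in the 4 vehicle mice and at 15.1, 14.9, 16.7, 17.9 and 15.9 CPM in the 5 PB mice. In B6C3F1, Tie1 stood at 14.7, 15.4, 13.3 and 14.4 CPM with vehicle and at 22.2, 20.9, 18.5, 21.3 and 19.2 CPM with PB. Every B6C3F1 PB mouse was above every other mouse of the study, and the C57BL/6J groups overlapped. For Tie1 the log2 fold change was 0.50 (SE 0.08, FDR 3.5e-04) in B6C3F1 and 0.20 (SE 0.08, FDR 0.298) in C57BL/6J. Tek itself had 0.13 in B6C3F1 and 0.14 in C57BL/6J.

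Vwf, the clotting factor of larger vessels, was lower in B6C3F1 mice given PB without passing the test. In C57BL/6J, Vwf stood at 12.2, 12.5, 14.6 and 14.8 CPM in the 4 vehicle mice and at 11.0, 13.9, 14.9, 14.3 and 12.4 CPM in the 5 PB mice. In B6C3F1, Vwf stood at 10.2, 11.3, 14.2 and 12.7 CPM with vehicle and at 9.02, 11.9, 7.34, 8.91 and 10.2 CPM with PB. In C57BL/6J the groups were interleaved, and in B6C3F1 3 of 5 PB mice were below the vehicle mice, with PB mice 2 and 5 inside their range. Estimated log2 fold changes were -0.35 (SE 0.12, FDR 0.0778) in B6C3F1 and -0.03 (SE 0.12, FDR 0.974) in C57BL/6J. Its neighbours in function, the vein and capillary markers Cd34 and Emcn, had 0.17 and 0.23 in B6C3F1.

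Among biliary markers, Prom1, the membrane glycoprotein CD133, was the gene with the widest change. In C57BL/6J, Prom1 stood at 1.96, 1.67, 3.502 and 1.41 CPM in the 4 vehicle mice and at 3.64, 4.85, 5.61, 5.42 and 5.15 CPM in the 5 PB mice. In B6C3F1, Prom1 stood at 2.54, 1.61, 2.08 and 1.86 CPM with vehicle and at 14.2, 5.17, 19.7, 8.19 and 5.72 CPM with PB. All PB mice were above all vehicle mice in both strains, and B6C3F1 PB mice 3 and 1 were the highest of the 18. The B6C3F1 PB group was also the most spread, at 10.6 ± 6.21 CPM against 2.02 ± 0.395 with vehicle, while C57BL/6J went from 2.14 ± 0.939 to 4.93 ± 0.776 CPM (SD). The log2 fold change was 2.16 (SE 0.34, FDR 6.1e-04) in B6C3F1, a call that edgeR also made (FDR 1.7e-04), and 1.24 (SE 0.34, FDR 0.0696) in C57BL/6J, which was not called. These calls depended on which mice shared the estimate of spread. With only the 2 groups compared in the fit, Prom1 was called in C57BL/6J (FDR 0.00709) and not in B6C3F1 (FDR 0.0160).

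Sox9, the transcription factor of bile duct cells, did not follow Prom1. In C57BL/6J, Sox9 stood at 4.99, 5.197, 4.11 and 4.93 CPM in the 4 vehicle mice and at 3.43, 4.49, 4.62, 3.51 and 4.90 CPM in the 5 PB mice. In B6C3F1, Sox9 stood at 2.98, 3.36, 3.52 and 5.95 CPM with vehicle and at 3.66, 2.32, 2.73, 3.52 and 1.87 CPM with PB. PB mice were lower on average in both strains but the groups overlapped, and B6C3F1 vehicle mouse 5 was the highest of all mice. Sox9 had a log2 fold change of -0.46 (SE 0.20, FDR 0.153) in B6C3F1 and -0.20 (SE 0.20, FDR 0.782) in C57BL/6J. The keratins had 0.20 for Krt7 and 0.04 for Krt19 in C57BL/6J, and -0.15 and 0.02 in B6C3F1. Spp1 had 0.08 and -0.01, and Sox4 -0.02 and 0.19, in C57BL/6J and B6C3F1. The median over the 6 biliary markers was 0.06 in C57BL/6J and 0.01 in B6C3F1.

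**Figure D3:**
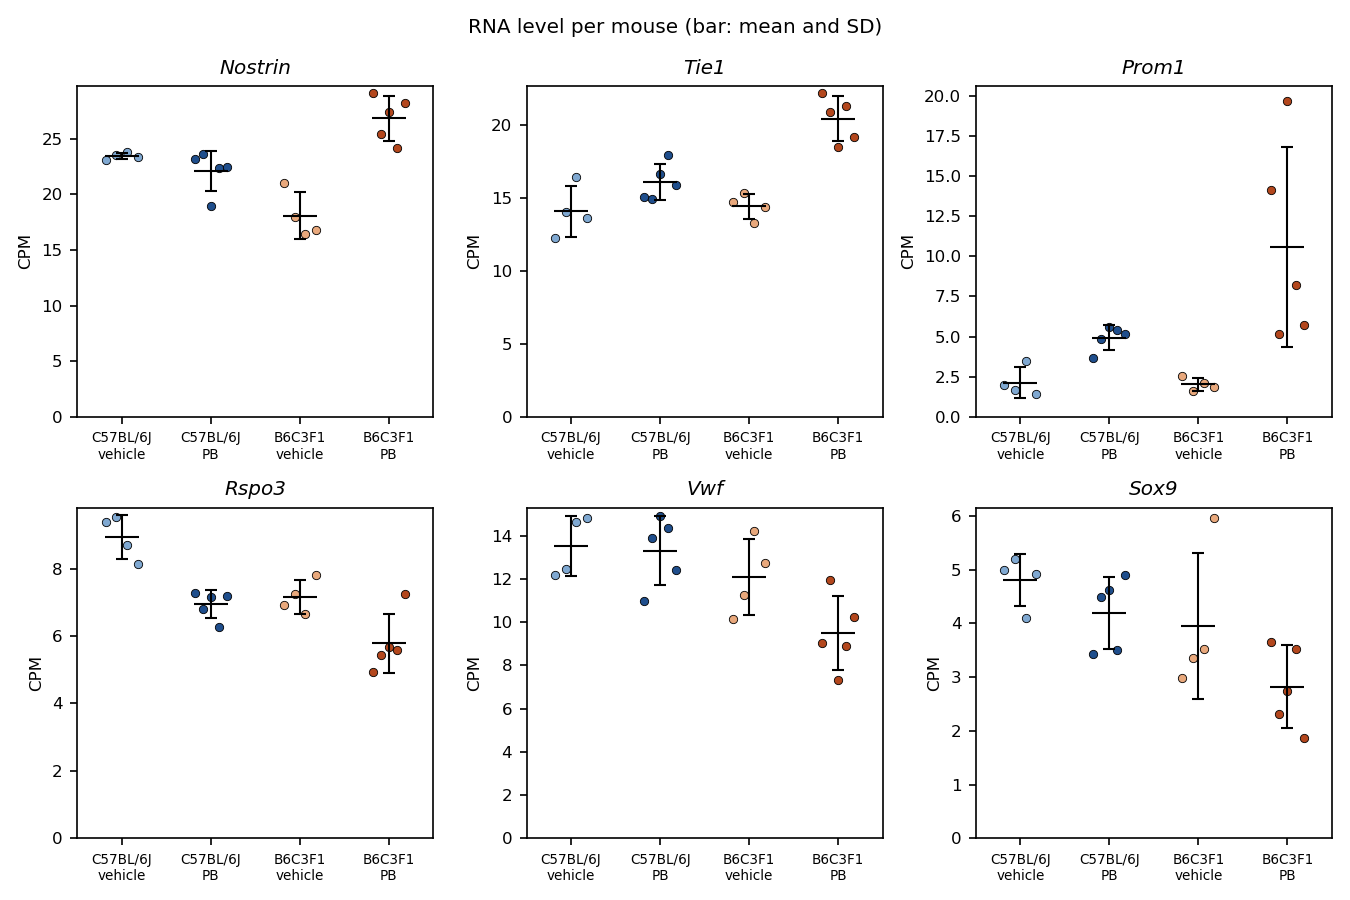
RNA level in CPM of Nostrin, Tie1, Prom1, Rspo3, Vwf and Sox9 in each of the 18 mice, by strain and treatment; points are mice, bars the group mean and SD, and each axis starts at 0. The B6C3F1 PB mice stand above the B6C3F1 vehicle mice in Nostrin, Tie1 and Prom1, with Prom1 between 5.17 and 19.7 CPM.

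Whether PB acted differently in the strains was tested as the difference between the 2 responses (interaction). Limma and edgeR called 0 of the 36 markers, beside 0% of all genes by either tool. At an unadjusted p under 0.05, limma passed 4 endothelial markers and 0 biliary markers, with 7.899% of all genes. The median over the endothelial markers was -0.04, with 8 of 30 above zero, and -0.06 over the biliary markers, against 0.00 and 50.2% over all genes. Nostrin came nearest to a call, at 0.66 (SE 0.11, FDR 0.0197), with an edgeR FDR of 0.0485. Over the fits without 1 mouse its FDR ran from 0.00566 to 0.0611, and without B6C3F1 vehicle mouse 1 it was called (0.74, FDR 0.00566). Tie1 had 0.30 (SE 0.12, FDR 0.519), Oit3 -0.27 (SE 0.11, FDR 0.530), Prom1 0.92 (SE 0.48, FDR 0.668) and Sox9 -0.26 (SE 0.28, FDR 0.867). The scavenger receptor Stab1 had -0.19 (SE 0.09, FDR 0.625). In C57BL/6J, Stab1 stood at 73.9, 88.8, 89.5 and 83.2 CPM in the 4 vehicle mice and at 92.5, 95.7, 94.2, 92.9 and 86.4 CPM in the 5 PB mice. In B6C3F1, Stab1 stood at 94.0, 84.2, 103 and 90.7 CPM with vehicle and at 93.8, 91.7, 83.1, 95.6 and 84.0 CPM with PB. The Stab1 groups overlapped in both strains.

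Between strains, most endothelial markers were a little lower in B6C3F1. With vehicle, limma and edgeR called 0 of 30 endothelial and 0 of 6 biliary markers, against 3.63% (limma) and 3.59% (edgeR) of all genes; at an unadjusted p under 0.05 limma passed 12 and 0, with 33.1% of all genes. With PB, limma and edgeR again called 0 and 0, against 5.25% and 5.46% of all genes, and 16 and 2 had an unadjusted p under 0.05, with 39.9% of all genes. The endothelial log2 fold change (B6C3F1 against C57BL/6J) was below zero for 22 of 30 genes with vehicle and for 24 of 30 with PB. Medians were -0.13 and -0.18 over endothelial markers and -0.17 and -0.18 over biliary markers. The 17 hepatocyte genes leaned the other way, with 15 and 17 above zero and medians of 0.12 with vehicle and 0.14 with PB, and a shift in the share of hepatocyte RNA was not tested. Over all genes, 49.2% and 49.0% were above zero with medians of 0.00 and -0.01. The vehicle groups of the strains did not overlap in 6 endothelial markers, all lower in B6C3F1 (Fcgr2b, Pecam1, Cdh5, Rspo3, Ptprb and Nostrin), beside 22.2% of all genes. The PB groups did not overlap in 9, of which Tie1 and Nostrin were higher in B6C3F1 and Oit3, Mrc1, Cdh5, Flt1, Eng, Egfl7 and Ptprb lower, beside 18.8% of all genes.

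Cdh5, the cadherin of endothelial junctions, was lower in B6C3F1 with either treatment. In C57BL/6J, Cdh5 stood at 30.1, 36.4, 39.0 and 35.1 CPM in the 4 vehicle mice and at 36.3, 38.3, 37.7, 44.0 and 34.4 CPM in the 5 PB mice. In B6C3F1, Cdh5 stood at 28.8, 25.8, 29.2 and 29.4 CPM with vehicle and at 29.2, 32.4, 25.7, 31.6 and 31.7 CPM with PB. Every B6C3F1 mouse lay below every C57BL/6J mouse of the same treatment. The strain log2 fold change was -0.31 (SE 0.09, FDR 0.0153) with vehicle and -0.34 (SE 0.08, FDR 0.00236) with PB. Pecam1, another junction protein, had lower values in the B6C3F1 vehicle mice. In C57BL/6J, Pecam1 stood at 25.4, 24.4, 29.0 and 25.2 CPM in the 4 vehicle mice and at 25.7, 28.1, 29.8, 32.2 and 22.5 CPM in the 5 PB mice. In B6C3F1, Pecam1 stood at 23.5, 18.6, 23.1 and 22.0 CPM with vehicle and at 20.9, 25.7, 20.47, 22.6 and 21.9 CPM with PB. The vehicle groups of the strains were apart and the PB groups overlapped. Its strain log2 fold change was -0.25 (SE 0.10, FDR 0.0754) with vehicle and -0.30 (SE 0.09, FDR 0.0139) with PB. For Mrc1, which takes up glycoproteins, the PB groups of the strains were apart. In C57BL/6J, Mrc1 stood at 115, 109, 121 and 103 CPM in the 4 vehicle mice and at 126, 114, 123, 129.9 and 106 CPM in the 5 PB mice. In B6C3F1, Mrc1 stood at 108, 99.5, 101 and 98.3 CPM with vehicle and at 96.7, 102, 96.8, 104 and 102 CPM with PB. All B6C3F1 PB mice lay below all C57BL/6J PB mice, and the vehicle groups overlapped. The strain log2 fold change was -0.14 (SE 0.06, FDR 0.113) with vehicle and -0.25 (SE 0.05, FDR 0.00157) with PB.

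Of the genes described above for PB, none differed between strains enough for a call. Nostrin went from -0.38 (SE 0.08, FDR 0.00221) with vehicle to 0.28 (SE 0.07, FDR 0.00643) with PB, that is, from lower to higher in B6C3F1. Oit3 had -0.42 (SE 0.07, FDR 2.0e-04) with PB, Ptprb -0.20 (SE 0.04, FDR 0.00111), Flt1 -0.20 (SE 0.06, FDR 0.0170) and Tie1 0.34 (SE 0.08, FDR 0.00244). Vwf had -0.49 (SE 0.12, FDR 0.00342), and was called without B6C3F1 PB mouse 2 (-0.58). Rspo3 had -0.31 (SE 0.11, FDR 0.0410) with vehicle and -0.27 (SE 0.10, FDR 0.0380) with PB. On the biliary side, Sox9 had -0.58 (SE 0.19, FDR 0.0230) and Prom1 0.91 (SE 0.32, FDR 0.0437) with PB. With vehicle, Sox9 had -0.32 (SE 0.21, FDR 0.289). Sox4, a transcription factor of developing bile ducts, had -0.41 (SE 0.23, FDR 0.216) with vehicle. In C57BL/6J, Sox4 stood at 1.21, 1.14, 1.85 and 1.53 CPM in the 4 vehicle mice and at 1.19, 1.29, 1.83, 1.68 and 1.08 CPM in the 5 PB mice. In B6C3F1, Sox4 stood at 0.678, 0.974, 1.37 and 1.23 CPM with vehicle and at 0.944, 1.199, 1.15, 1.52 and 1.19 CPM with PB. All Sox4 values were below 2 CPM and the groups overlapped.

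Open chromatin near the markers was read from 98170 DHSs of the same mice. In total, 338 DHSs overlapped the 500 bases on either side of a marker's transcription start or had a marker's start as the nearest one. These were 154 intergenic, 137 intronic and 47 exonic. They covered all 36 genes. A DHS lay at the start of 28 of them and not at that of Flt4, Bmp6, Wnt9b, Vwf, Cd34, Krt7, Krt19 and Prom1. With PB, limma called 2 of the 338 in C57BL/6J, 1 higher and 1 lower, against 0.367% of all DHSs, and 1, higher, in B6C3F1, against 0.1905%. At an unadjusted p under 0.05 there were 17 and 18 DHSs, with 7.76% and 9.16% of all DHSs. Of the 31 DHSs at starts, limma called 0 in either strain, with 1 in C57BL/6J and 3 in B6C3F1 at an unadjusted p under 0.05. The median log2 fold change over the 338 was 0.00 in C57BL/6J and 0.01 in B6C3F1, beside 0.00 and -0.01 over all DHSs. The strain difference in response was called at 0 of the 338 by limma, beside 0% of all DHSs. There, 11 had an unadjusted p under 0.05, with 5.39% of all DHSs.

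Both DHSs that rose lay next to each other in an intron of Tie1, deep inside the gene from its start. The first, at chr4:118476772-118477123 (mm10), was 12.9 kb downstream of the start. In C57BL/6J, its normalized count stood at 61.1, 52.7, 67.5 and 34.2 in the 4 vehicle mice and at 135, 177, 130.4, 138 and 135 in the 5 PB mice. In B6C3F1, its normalized count stood at 27.5, 26.3, 88.6 and 33.8 with vehicle and at 61.9, 84.8, 87.2, 59.6 and 143 with PB. All C57BL/6J PB mice were above all C57BL/6J vehicle mice. In B6C3F1 the PB mice lay above 3 of the 4 vehicle mice, and vehicle mouse 3, the library with the fewest reads, was among them. The log2 fold change was 1.43 (SE 0.19, FDR 7.0e-05) in C57BL/6J, where it was called, and 1.09 (SE 0.34, FDR 0.250) in B6C3F1, with a strain difference of -0.34 (SE 0.41, FDR 0.938). The call in C57BL/6J held without any 1 mouse of that strain (FDR 9.8e-05 to 6.4e-04) but not with all 18 mice in the fit (FDR 0.0221).

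The second, at chr4:118477235-118477585, was 12.4 kb downstream of the Tie1 start. In C57BL/6J, this DHS stood at 118, 114, 123 and 122 in the 4 vehicle mice and at 170.4, 204, 184, 161 and 197 in the 5 PB mice. In B6C3F1, this DHS stood at 79.2, 52.7, 73.8 and 48.7 with vehicle and at 146, 145, 124, 120.2 and 195 with PB. PB mice were above vehicle mice throughout in both strains, and the B6C3F1 vehicle mice were the lowest of all. Its log2 fold change was 1.19 (SE 0.21, FDR 0.00990) in B6C3F1, where it was called, and 0.61 (SE 0.13, FDR 0.0259) in C57BL/6J, with a strain difference of 0.59 (SE 0.24, FDR 0.907). The B6C3F1 call was lost with the replicate number as a block and when any of 8 of its 9 mice was left out (FDR up to 0.0486). It was kept without vehicle mouse 3 (FDR 0.00727) and with all 18 mice in the fit (FDR 1.1e-04). Upstream of the gene, chr4:118500201-118501085 had 0.56 (SE 0.11, FDR 0.00544) in C57BL/6J and 0.33 (SE 0.21, FDR 0.703) in B6C3F1; it was chosen for its closeness to Tie1 after its values were seen. The DHS at the Tie1 start, chr4:118489777-118491079, had 0.31 (SE 0.09, FDR 0.214) in B6C3F1 and 0.02 (SE 0.08, FDR 0.982) in C57BL/6J. Beside these, Tie1 RNA was higher with PB in B6C3F1 and overlapped in C57BL/6J, as given above.

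**Figure D4:**
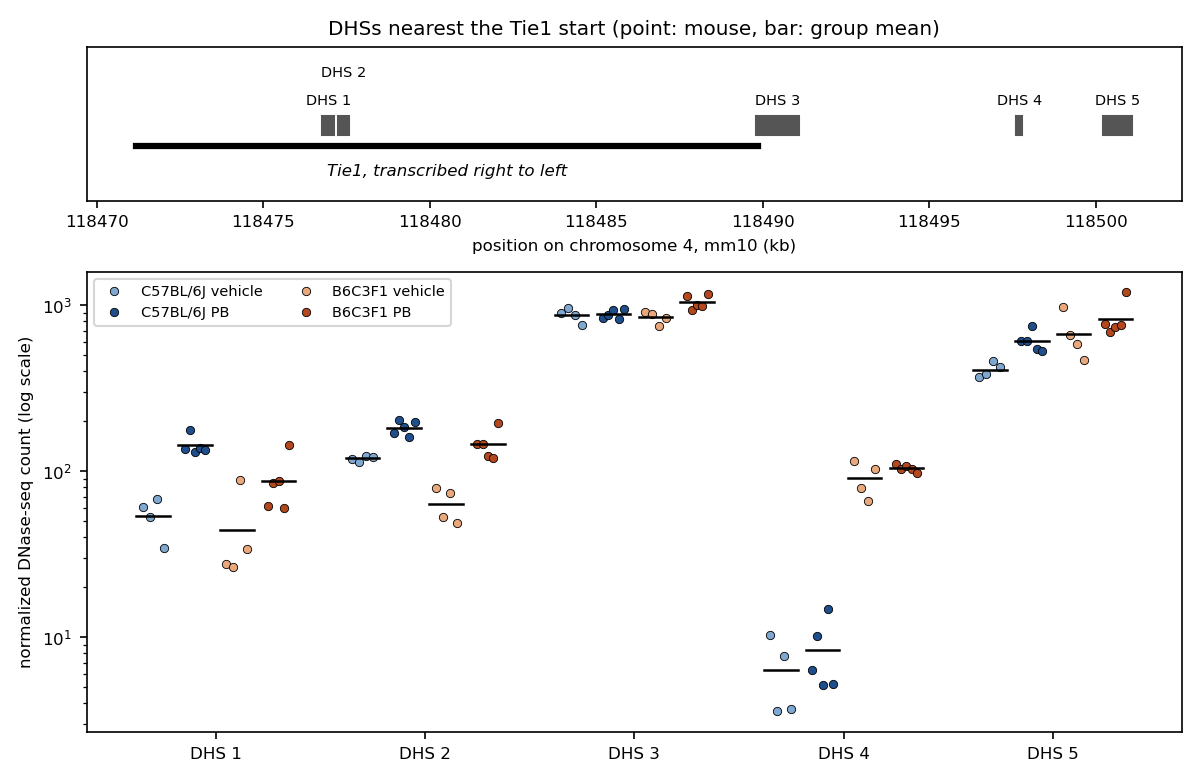
Top, the 5 DHSs nearest the Tie1 start on chromosome 4 (mm10, kb), with the gene as a bar that is transcribed from right to left. Bottom, normalized DNase-seq count per mouse (log scale) at each DHS by strain and treatment, with bars for group means; at the intronic DHSs (numbers 1 and 2) the C57BL/6J PB mice lie above the C57BL/6J vehicle mice, and at DHS 4 both B6C3F1 groups lie above both C57BL/6J groups.

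Near Vwf, 14.3 kb upstream of its start, the intergenic DHS chr6:125538474-125538897 fell with PB in C57BL/6J. In C57BL/6J, this site stood at 385, 332, 317 and 312 in the 4 vehicle mice and at 225, 221, 234, 158 and 193 in the 5 PB mice. In B6C3F1, this site stood at 204, 142, 295 and 211 with vehicle and at 100.2, 209, 167, 174 and 152 with PB. Every C57BL/6J PB mouse was below every C57BL/6J vehicle mouse, and the B6C3F1 groups overlapped. The log2 fold change was -0.71 (SE 0.13, FDR 0.00342) in C57BL/6J and -0.40 (SE 0.22, FDR 0.620) in B6C3F1, with a strain difference of 0.31 (SE 0.26, FDR 0.915). The C57BL/6J call was lost without vehicle mouse 1 (FDR 0.0341), 2 (FDR 0.0169) or 3 (FDR 0.0109), without PB mouse 5 (FDR 0.0124), and with all 18 mice in the fit (FDR 0.153). Vwf RNA itself had -0.03 in C57BL/6J.

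Genes that start within 50 kb of these DHSs were looked up after the DHS values were seen. Around the Tie1 introns they included Tie1, Cdc20, a gene of cell division, with log2 fold changes of 0.26 (FDR 0.877) in C57BL/6J and -0.01 (FDR 0.994) in B6C3F1, and 2610528J11Rik, with 0.17 (FDR 0.584) and 0.34 (FDR 0.0448). Around the Vwf DHS they were Vwf and the tetraspanin gene Cd9, with -0.21 (FDR 0.173) in C57BL/6J and -0.49 (FDR 1.0e-04) in B6C3F1.

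At the starts of the other markers given in full, no DHS was called with PB. The Nostrin start (chr2:69135595-69136202) had -0.02 in C57BL/6J and 0.06 in B6C3F1, and the strain log2 fold change with vehicle was -0.47 (SE 0.12, FDR 0.00691). In C57BL/6J, the Nostrin start stood at 696, 658, 549.6 and 668 in the 4 vehicle mice and at 523, 699, 671, 619 and 657 in the 5 PB mice. In B6C3F1, the Nostrin start stood at 423, 514, 402 and 519 with vehicle and at 441, 547, 482, 415 and 542 with PB. The treatments overlapped in each strain, and all B6C3F1 vehicle mice were below all C57BL/6J vehicle mice, as they were in Nostrin RNA. The Rspo3 start (chr10:29535758-29536058) had -0.53 (FDR 0.328) in C57BL/6J and -0.71 (FDR 0.612) in B6C3F1. Of the pair of DHSs at the Sox9 start, the upstream one (chr11:112781474-112781738) had -0.29 (SE 0.16, FDR 0.739) in C57BL/6J and -0.80 (SE 0.20, FDR 0.0914) in B6C3F1. In C57BL/6J, the upstream Sox9 DHS stood at 90.4, 110.3, 105 and 114 in the 4 vehicle mice and at 96.3, 90.1, 77.5, 94.3 and 71.3 in the 5 PB mice. In B6C3F1, the upstream Sox9 DHS stood at 162, 129.9, 155 and 150.1 with vehicle and at 105, 61.6, 105, 89.4 and 72.6 with PB. In B6C3F1 all PB mice were below all vehicle mice, and in C57BL/6J the groups overlapped. The other Sox9 DHS (chr11:112781879-112782444) had 0.06 and -0.19. Starts of Ptprb (-0.10 and 0.05, with another DHS at 0.08 and -0.01), Flt1 (0.01 and 0.21), Mrc1 (-0.06 and -0.14), Oit3 (0.12 and -0.03) and Stab1 (0.05 and 0.10) are given for C57BL/6J and B6C3F1 in that order. In the same order, Cdh5 had 0.28 and 0.43, Pecam1 0.20 and 0.19, and Sox4 -0.06 and 0.07.

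Between the vehicle groups of the strains, limma called 21 of the 338 DHSs, 15 higher and 6 lower in B6C3F1, against 10.5% of all DHSs; 86 had an unadjusted p under 0.05, with 39.6% of all DHSs. None of the 31 at starts was called by limma, with 4 at an unadjusted p under 0.05. The median over the 338 was -0.17, beside -0.04 over all DHSs. The most divided was chr4:118497606-118497786, 7.85 kb upstream of the Tie1 start. In C57BL/6J, its signal stood at 10.3, 3.56, 7.64 and 3.67 in the 4 vehicle mice and at 6.35, 10.1, 5.17, 14.7 and 5.19 in the 5 PB mice. In B6C3F1, its signal stood at 115, 79.0, 66.4 and 103 with vehicle and at 111, 103, 108, 102 and 97.4 with PB. All B6C3F1 mice lay well above all C57BL/6J mice, whatever the treatment, and the strain log2 fold change was 3.73 (SE 0.39, FDR 7.8e-06). The others higher in B6C3F1, with their log2 fold change, lay nearest to Wnt9b chr11:103758763-103759093 (1.26), Spp1 chr5:104432999-104433231 (1.12), Prom1 chr5:44048701-44048880 (1.12), Flt1 chr5:147584052-147584213 (1.11), Ptprb chr10:116319254-116319538 (1.08), Kdr chr5:75853171-75853400 (1.07) and Nostrin chr2:69100824-69101036 (1.02). They also included Kdr chr5:76026355-76026696 (0.84), Fcgr2b chr1:170992650-170992920 (0.75), Cdh5 chr8:104028618-104028994 (0.73), Dnase1l3 chr14:7997266-7997703 (0.72), Stab2 chr10:87024958-87025276 (0.67), Spp1 chr5:104417609-104418204 (0.59) and Egfl7 chr2:26561630-26562004 (0.58). Lower in B6C3F1 were Cdh5 chr8:104009247-104009768 (-0.63), Vwf chr6:125538474-125538897 (-0.70), Sox4 chr13:28930391-28930663 (-0.84), Rspo3 chr10:29821089-29821904 (-0.91), Tie1 chr4:118477235-118477585 (-0.93) and Bmp2 chr2:133427096-133427394 (-0.93). The 21 calls fell to 11 with the replicate number as a block and to 7 without C57BL/6J vehicle mouse 2. Those 7 were chr4:118497606-118497786 and the DHSs named for Wnt9b, Prom1, Ptprb, Nostrin, Dnase1l3 and Rspo3.

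Promoters of the markers were searched for short motifs of factors at work in endothelium, among them the ETS family. RefSeq promoter sequences (300 bases around the start, GRCm38.p6, the mm10 build) matched 24 of the 36 markers with 28 sequences, out of 32851 in all. The ETS core AGGAAG, on either strand, was in 19 of 28 marker promoters (67.9%) and in 35.4% of all promoters, and CGGAAG in 4 of 28 (14.3%) and 16.9%. The 28 sequences pool endothelial and biliary markers, which were not counted apart. Those with AGGAAG include the biliary genes Prom1, Spp1, Sox4 and Krt7. The SOX motif ACAATG and the GATA motif AGATAA were each in 1 of 28 (3.57%), beside 12.6% and 11.2% of all promoters. TATAAA was in 3 of 28 (10.7%) and 13.6%. The CGGAAG and AGGAAG motifs differ in their first letter, so no stretch counts for both, and either was in 67.9% of marker promoters and 46.5% of all. A match describes the letters and is no evidence of binding.

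The promoters of Nostrin and Tie1 are shown because, among endothelial markers, these genes came nearest to a call with PB in B6C3F1. ETS cores of either strand are in capitals. The Nostrin sequence is chr2:69135550-69135849, forward strand, and the Tie1 sequence chr4:118489800-118490099, reverse strand, both 5′ to 3′ from RefSeq and build GRCm38.p6.
Nostrin promoter: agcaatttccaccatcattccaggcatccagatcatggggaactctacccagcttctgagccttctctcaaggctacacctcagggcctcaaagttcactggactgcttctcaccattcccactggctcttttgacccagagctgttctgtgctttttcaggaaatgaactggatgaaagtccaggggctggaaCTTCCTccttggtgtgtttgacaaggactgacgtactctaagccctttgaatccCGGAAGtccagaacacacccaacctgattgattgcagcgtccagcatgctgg
Tie1 promoter: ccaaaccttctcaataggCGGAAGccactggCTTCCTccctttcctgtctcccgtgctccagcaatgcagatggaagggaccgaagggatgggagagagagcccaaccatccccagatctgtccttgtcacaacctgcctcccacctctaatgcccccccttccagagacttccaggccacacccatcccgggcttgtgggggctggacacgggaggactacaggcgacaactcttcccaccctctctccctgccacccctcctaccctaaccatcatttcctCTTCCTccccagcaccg
Nostrin holds 2 such cores and Tie1 holds 3. For the biliary marker Prom1, which was called, the promoter at chr5:44101687-44101986 holds 0 and that at chr5:44094719-44095018 holds 4 (neither shown).

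The DHSs called with PB were searched, after their values were seen, for the hexamers AGGTCA and AGTTCA that nuclear receptors such as CAR recognise, on both strands, in the 300 bases around the centre. AGGTCA was in 28.1% of all 98170 DHSs, AGTTCA in 22.8%, and either in 44.0%. A pair in the same direction with 4 bases between, the spacing known for CAR, was in 109 DHSs (0.111%) and in none of the 3 shown. Sequences are from the RefSeq assembly GRCm38.p6, forward strand, with hexamers in capitals. They are the first Tie1 DHS at chr4:118476798-118477097, the adjacent one at chr4:118477261-118477560, and the Vwf site at chr6:125538536-125538835. Each label names the strain in which the DHS was called. In the other strain the estimate had the same sign, and no strain difference in response was called by limma.
Tie1 DHS that rose in C57BL/6J: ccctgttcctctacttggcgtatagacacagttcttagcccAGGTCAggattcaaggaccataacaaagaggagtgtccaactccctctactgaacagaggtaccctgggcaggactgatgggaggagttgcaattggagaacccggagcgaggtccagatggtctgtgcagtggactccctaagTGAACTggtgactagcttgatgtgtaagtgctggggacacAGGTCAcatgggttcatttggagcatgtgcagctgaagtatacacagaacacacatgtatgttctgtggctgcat
Tie1 DHS that rose in B6C3F1: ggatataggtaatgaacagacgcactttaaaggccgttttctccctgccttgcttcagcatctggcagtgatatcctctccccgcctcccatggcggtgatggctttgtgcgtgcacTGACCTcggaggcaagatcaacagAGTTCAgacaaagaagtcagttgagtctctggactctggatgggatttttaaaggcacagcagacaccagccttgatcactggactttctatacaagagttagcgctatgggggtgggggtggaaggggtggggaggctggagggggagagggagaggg
Vwf DHS that fell in C57BL/6J: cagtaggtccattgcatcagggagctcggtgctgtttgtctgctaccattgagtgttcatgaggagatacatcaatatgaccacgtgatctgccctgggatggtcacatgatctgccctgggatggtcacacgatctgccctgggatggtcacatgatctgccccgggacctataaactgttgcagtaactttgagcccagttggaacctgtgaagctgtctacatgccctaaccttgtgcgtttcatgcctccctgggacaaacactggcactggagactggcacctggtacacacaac
The first holds 3 hexamers, the next 2 and the Vwf window 0.

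Lists of related genes were read the same way. Of 40 other endothelial genes, limma and edgeR called 0 in either strain with PB; 1 and 6 had an unadjusted p under 0.05 in C57BL/6J and B6C3F1. They were above zero for 25 and 24 of 40, with medians of 0.05 and 0.05. The Notch ligand Dll4 had 0.57 (SE 0.16, FDR 0.0308) in B6C3F1 and 0.33 (SE 0.16, FDR 0.426) in C57BL/6J, the matrix gene Ltbp4 0.19 (SE 0.08, FDR 0.276) in C57BL/6J, and the adhesion receptor Adgrf5 0.19 (SE 0.07, FDR 0.0834) in B6C3F1. Between strains the medians were -0.14 with vehicle and -0.15 with PB. Cyyr1 was called lower in B6C3F1 with vehicle (-0.74, SE 0.16, FDR 0.00273), and the endothelial lectin-like receptor Clec14a with PB (-0.64, SE 0.08, FDR 3.4e-06). Of 17 ligands and co-receptors for endothelium, limma called 0 with PB in either strain (2 and 5 at an unadjusted p under 0.05), and edgeR called the co-receptor Nrp2 lower in B6C3F1. Nrp2 had -0.59 (SE 0.15, FDR 0.0199) in B6C3F1 and -0.52 (SE 0.15, FDR 0.0905) in C57BL/6J, and Hgf, the hepatocyte growth factor, -0.38 (SE 0.09, FDR 0.0117) and -0.23 (SE 0.09, FDR 0.284). Their medians were 0.00 in C57BL/6J and -0.05 in B6C3F1.

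Genes listed as targets of endothelial Wnt signals in hepatocytes moved in both directions, and whether Wnt signals moved them was not tested. With PB, 2 of 20 rose in C57BL/6J, Rhbg, an ammonium transporter, at 0.96 (SE 0.16, FDR 0.00148) and Cyp1a2, a pericentral P450, at 0.91 (SE 0.16, FDR 0.00343). In B6C3F1, Cyp1a2 at 1.30 (SE 0.16, FDR 7.6e-05) and Tnfrsf19 at 0.96 (SE 0.18, FDR 0.00155) rose, and Cldn2, a tight junction protein, fell, at -0.72 (SE 0.10, FDR 1.6e-04). In the other strain Rhbg had 0.46 (SE 0.16, FDR 0.0822), Tnfrsf19 0.54 (SE 0.18, FDR 0.148) and Cldn2 -0.32 (SE 0.10, FDR 0.137). The strain difference in response was -0.50 (SE 0.23, FDR 0.625) for Rhbg, 0.43 (SE 0.25, FDR 0.712) for Tnfrsf19 and -0.40 (SE 0.15, FDR 0.503) for Cldn2. The list's median was -0.16 in C57BL/6J and 0.04 in B6C3F1. Between strains, Ccnd1 (-0.78 with vehicle), Oat (-0.63 and -0.77 with vehicle and PB) and Slc1a2 (-0.75 and -0.94) were called lower in B6C3F1, and Tnfrsf19 higher with PB (0.64). Between the PB groups, edgeR alone also called the stem cell receptor Lgr5. Of 18 periportal hepatocyte genes, the cadherin Cdh1 rose (1.47, SE 0.19, FDR 1.7e-04) and Etnppl fell (-0.90, SE 0.08, FDR 2.1e-07) in B6C3F1. In C57BL/6J limma and edgeR called 0 of 18, with 5 at an unadjusted p under 0.05. Etnppl had -0.40 (SE 0.08, FDR 0.00479) and Cdh1 0.23 (SE 0.19, FDR 0.740) there. The strain difference in PB response was 1.24 (SE 0.28, FDR 0.182) for Cdh1 and -0.49 (SE 0.11, FDR 0.173) for Etnppl. With vehicle, Cdh1 (-0.90) and Hal (-0.64) were called lower in B6C3F1.

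Other biliary genes gave no further call with PB. Of 22, limma and edgeR called 0 in either strain, with 3 in C57BL/6J and 5 in B6C3F1 at an unadjusted p under 0.05. Medians were 0.02 and -0.06. The ion transporter Slc12a2 had -0.40 (SE 0.09, FDR 0.00564) in B6C3F1 and -0.23 (SE 0.09, FDR 0.236) in C57BL/6J, the transcription factor Onecut2 -0.38 (SE 0.10, FDR 0.0173) in B6C3F1, and the surface protein gene Cd24a -0.52 (SE 0.20, FDR 0.242) in C57BL/6J. The keratin Krt23 was called lower in B6C3F1 with vehicle (-1.18, SE 0.28, FDR 0.00498) and with PB (-0.99, SE 0.25, FDR 0.00528). The summed level of the 6 biliary markers was 41.2 ± 4.63 in C57BL/6J vehicle, 45.2 ± 5.69 in C57BL/6J PB, 41.1 ± 7.38 in B6C3F1 vehicle and 48.1 ± 8.55 in B6C3F1 PB (CPM, SD), with Spp1 the most abundant. Within this sum, mean Prom1 went with PB from 2.14 to 4.93 CPM in C57BL/6J and from 2.02 to 10.6 CPM in B6C3F1. Mean Spp1 went from 31.2 to 33.1 CPM and from 32.8 to 32.3 CPM.

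Markers of other non-parenchymal cells were compared between strains beside the endothelial ones. The summed CPM of the 30 endothelial markers was 1346, 1377, 1464 and 1356 in C57BL/6J vehicle, 1473, 1503, 1502, 1556 and 1402 in C57BL/6J PB, 1382, 1281, 1368 and 1284 in B6C3F1 vehicle and 1360.1, 1429, 1267, 1364 and 1393 in B6C3F1 PB, with Ptprb the most abundant. The summed CPM of 18 Kupffer cell genes was 553, 604, 710.1 and 547 in C57BL/6J vehicle, 555, 574, 561, 800.2 and 469 in C57BL/6J PB, 568, 493, 558 and 570.5 in B6C3F1 vehicle and 477, 462, 456, 519 and 510.3 in B6C3F1 PB, with the iron exporter Slc40a1 the most abundant. Endothelial sums were 1386 ± 53.8 and 1329 ± 53.8 CPM in the vehicle groups of C57BL/6J and B6C3F1, and Kupffer sums 603 ± 75.7 and 547 ± 36.7 (SD), and in both lists these groups overlapped. The Kupffer median log2 fold change between strains was -0.32 with vehicle and -0.36 with PB, and 2 and 0 of 18 were above zero. Cd163 (-0.66 and -0.59) and Folr2 (-1.06 and -1.05) were called lower in B6C3F1 with either treatment. With PB, limma and edgeR called 0 of 18 in either strain, with 0 and 1 at an unadjusted p under 0.05. Slc40a1 had -0.39 (SE 0.10, FDR 0.0129) and Cd68 -0.15 (SE 0.13, FDR 0.547) in B6C3F1, and Marco -1.05 (SE 0.80, FDR 0.696) and Cd163 -0.10 (SE 0.09, FDR 0.788) in C57BL/6J. The part of other cell types in the endothelial values was not tested.

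The 8 lymphocyte genes were likewise mostly lower in B6C3F1. Their summed CPM was 26.6, 25.8, 32.3 and 25.6 in C57BL/6J vehicle, 24.2, 22.6, 25.1, 41.5 and 23.9 in C57BL/6J PB, 18.9, 16.2, 18.2 and 21.0 in B6C3F1 vehicle and 17.4, 17.0, 18.7, 20.0 and 20.2 in B6C3F1 PB, with Ptprc the most abundant. B6C3F1 mice were below C57BL/6J mice in both treatments, with no overlap. The strain medians were -0.65 and -0.56, with Ms4a1 (-2.28) called lower with vehicle and Cd52 (-0.81), by limma only, with PB. In C57BL/6J limma and edgeR called 0 of 8, with 2 at an unadjusted p under 0.05, among them Cd4 at -1.24 (SE 0.31, FDR 0.0306) and Cd3g at 0.91 (SE 0.38, FDR 0.291). For stellate cell and fibroblast genes, the log2 fold change with PB was above zero for 5 of 19 in C57BL/6J and 2 of 19 in B6C3F1, with medians of -0.11 and -0.22. Limma and edgeR called 0 of 19 in either strain (5 and 6 at an unadjusted p under 0.05). Their summed CPM was 652 ± 52.2 in C57BL/6J vehicle, 573 ± 49.7 in C57BL/6J PB, 683 ± 92.9 in B6C3F1 vehicle and 580.1 ± 59.1 in B6C3F1 PB (SD), with Reln the most abundant. Hhip had -0.36 (SE 0.12, FDR 0.156) and Ecm1 -0.25 (SE 0.10, FDR 0.251) in C57BL/6J, and Rgs5 -0.28 (SE 0.08, FDR 0.0243) and Colec11 -0.22 (SE 0.06, FDR 0.0326) in B6C3F1. Between the vehicle groups Rgs5 was called higher (0.66) and Hhip lower (-0.62) in B6C3F1. Of all genes on these lists, 5 were at 0 in at least 1 mouse, Hey1, Cyp2b13, Ms4a1, S100a8 and Bub1.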

How the data were processed

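RNA-seq and DNase-seq of 18 livers were used. The authors aligned RNA reads to mm10 with STAR 2.4.0f1, counted RefSeq genes and scaled them with edgeR 3.12.1 (TMM). The deposited RNA signal is in CPM, and 100% of its values were whole reads times 1 factor per library (tolerance 0.01). The authors aligned DNase reads with Bowtie2 2.1.0 after cutadapt 1.8, called peaks with MACS2 2.1.1.20160309 and counted DHSs found in at least 3 samples with DiffBind 1.16.3. The deposited DNase signal is a count normalized to library size.

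Genes that reached a CPM of 0.4 in 3 or more mice of some group were tested with limma 3.58.1 (trend, robust; R 4.3.3) on log2(CPM + 0.1) over all 18 samples, and all DHSs on log2(count + 1) over the samples of each comparison, with Benjamini-Hochberg FDR over all genes or all DHSs. The interaction at DHSs used all 18 samples. edgeR 4.0.16 (quasi-likelihood) on the recovered reads called 130 genes with PB in C57BL/6J, 291 in B6C3F1, 497 and 756 between strains with vehicle and PB, and 0 for the interaction. The fits were tested on simulated data. Tables and plots used matplotlib 3.10.9, numpy 2.4.6, scipy 1.17.1 and pandas 2.3.3 under Python 3.11.15.

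Every marker is named with its level. Full statistics are given for markers called and, in each RNA comparison, for the 4 endothelial and 2 biliary markers with the smallest p. For other lists they are given for genes called, else for the 2 genes with the smallest p in each PB comparison, and some genes outside the markers are not reported here. DHSs are named when called or at the start of a marker given in full. Further values for genes and DHSs were chosen after they were seen. Markers and lists were chosen with earlier results of these data known, so scores have no p. The PB and strain comparisons share groups of mice. Alternatives were other pseudocounts, filters, scaling, thresholds, edgeR, fewer or more groups in the fit, a replicate block and leaving out each mouse.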

Additional observations from a re-analysis of the deposited data

Results flagged for a closer look

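Single mice lay apart from the rest of their group, by the gap to the nearest mouse over the group's range, in 7 of 164 groups of 4 or 5 mice; chance alone gives about 5%. For Stab2, B6C3F1 PB mouse 2 was the highest, at 174 against 154 to 158 CPM in the others. For Cdh5, B6C3F1 vehicle mouse 2 was the lowest, at 25.8 against 28.8 to 29.4 CPM. For Nostrin, C57BL/6J PB mouse 3 was the lowest, at 19.0 against 22.3 to 23.6 CPM. C57BL/6J vehicle mouse 3 was the highest of its group in Krt19, at 2.37 against 0.535 to 0.835 CPM, and in the biliary score, at 1.77 against 1.15 to 1.23. At the Tie1 DHS chr4:118476772-118477123, C57BL/6J PB mouse 2 was the highest, with a normalized count of 177 against 130.4 to 138, and B6C3F1 vehicle mouse 3, whose library had 7.01 M reads in DHSs, was the highest of its group, at 88.6 against 26.3 to 33.8.

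The strain difference in the PB response of Nostrin was estimated at a log2 fold change of 0.66. It passed an FDR of 0.05 but not the 0.01 asked for a call (limma FDR 0.0197, edgeR FDR 0.0485). Nostrin was higher in 5 of 5 B6C3F1 PB mice than in any B6C3F1 vehicle mouse, and the C57BL/6J groups overlapped.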

How the results depend on the processing

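Of 365 alternatives over 22 results, 333 stayed within 1 SD (scores) or within 1.5 times the count (calls), and 32 moved. All 96 for the scores stayed within 1 SD, but the biliary score difference between strains crossed zero in 2 of them, from -0.14 to 0.0078 with vehicle without C57BL/6J vehicle mouse 3, and from -0.07 to 0.0031 with PB without C57BL/6J PB mouse 3. In B6C3F1, the endothelial markers called with PB numbered 2 with no minimum fold change, 1 with the replicate number as a block, and 0 to 1 without 1 mouse. Between strains, no minimum gave 1 endothelial marker with vehicle and 8 with PB, and leaving out 1 mouse gave 0 to 1 with PB. For the strain difference in response, an FDR of 0.05 gave 1, and leaving out 1 mouse 0 to 1. Biliary markers called with only the groups compared in the fit numbered 1 in C57BL/6J and 0 in B6C3F1, and 2 between strains with PB at an FDR of 0.05. Marker DHSs called with PB in C57BL/6J numbered 0 with all 18 mice in the fit and 1 to 3 without 1 mouse. In B6C3F1 they numbered 0 with the block and 0 to 1 without 1 mouse. Between vehicle groups they numbered 32 at an FDR of 0.05, 11 with the block and 7 to 26 without 1 mouse. Replicate numbers do not pair mice, and with the block the Nostrin strain difference had an FDR of 0.0412.

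With 4 or 5 mice a group, small changes in a scarce marker such as Krt7 or Wnt9b could not be separated from the spread between mice. B6C3F1 DNase libraries were mostly shallower than those of C57BL/6J. Whole tissue does not tell endothelial from other sources of a transcript.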

Other observations

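Hepatocyte targets of the BMP signals that endothelium sends showed no call with PB. Limma and edgeR called 0 of 14 in either strain, with 5 in C57BL/6J and 2 in B6C3F1 at an unadjusted p under 0.05 and medians of -0.06 and -0.05. The iron regulators had 0.28 (SE 0.06, FDR 0.0145) for Hfe and -0.12 (SE 0.04, FDR 0.154) for Tfr2 in C57BL/6J, and 0.16 (SE 0.06, FDR 0.116) for Hfe and -0.89 (SE 0.41, FDR 0.210) for Hamp, which encodes hepcidin, in B6C3F1. Its paralogue Hamp2 was called higher in B6C3F1 than in C57BL/6J with vehicle (1.89, SE 0.46, FDR 0.00982), and with PB by edgeR only.

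Of 17 hepatocyte genes, limma and edgeR called 0 with PB in either strain, with 8 and 6 at an unadjusted p under 0.05, and 17 and 14 were below zero (medians -0.10 and -0.06). The transferrin gene Trf had -0.23 (SE 0.06, FDR 0.0304) in C57BL/6J and -0.22 (SE 0.06, FDR 0.0149) in B6C3F1, with Ahsg at -0.37 (SE 0.09, FDR 0.0333) in C57BL/6J, and Ttr at -0.32 (SE 0.07, FDR 0.00542) in B6C3F1. Between the PB groups of the strains, Apoa1 was called higher in B6C3F1 than in C57BL/6J (0.95). The 17 genes together had 144660.0 ± 7496 in C57BL/6J vehicle, 128734 ± 4662 in C57BL/6J PB, 160655 ± 5558 in B6C3F1 vehicle and 143119 ± 6756 in B6C3F1 PB (CPM, SD), with Alb the most abundant. CAR targets differed between strains in Cyp2c37 (-0.90) and Cyp2a5 (-0.79) with vehicle and in Por (0.58) and Ces2a (0.71) with PB.

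Proliferation genes, 18 in all, had no call with PB by limma or edgeR in either strain (1 and 2 at an unadjusted p under 0.05). Mcm2 had 0.54 (SE 0.23, FDR 0.323) and Mcm5 0.45 (SE 0.32, FDR 0.664) in C57BL/6J, and Pcna -0.25 (SE 0.09, FDR 0.0995) and Kif11 -0.56 (SE 0.23, FDR 0.134) in B6C3F1. Between strains with PB their median was -0.70, and Mcm2 (-0.86), Mcm5 (-1.34), Pcna (-0.61) and Kif11 (-0.80, by limma only) were called lower in B6C3F1. Of 6 blood cell and platelet genes limma and edgeR called 0 with PB, with 0 at an unadjusted p under 0.05 in either strain. Slc4a1 had -0.34 (SE 0.35, FDR 0.794) and Itga2b -0.13 (SE 0.18, FDR 0.864) in C57BL/6J, and S100a8 0.81 (SE 0.49, FDR 0.349) and Pf4 -0.44 (SE 0.35, FDR 0.493) in B6C3F1.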
